A study of Mus musculus with 4 samples.

Results

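The genes of the hypoxia response and of glycolysis were followed through a 4-array study of IMS/N cells, an immortalized line of mouse hepatic stellate cells. The 37 genes were taken by name from a list of these pathways, and all 37 were found among the 26793 gene names of the array. They divide into 26 genes of glucose uptake, glycolysis, lactate export and pyruvate use, called glycolysis genes here, and 11 other hypoxia genes. The list was chosen with earlier results of these data known, so shares of all genes set beside its counts are descriptions only. The line derives from stellate cells of 129/Sv mouse livers, immortalized with SV40, and every culture was of this line. The 4 groups were IMS/N cells with neither addition (control), with palmitic acid (PA), with medium taken from cultures of adipose tissue-derived stem cells (ADSC medium), and with PA and ADSC medium together. The ADSCs came from inguinal subcutaneous fat of male C57BL/6J mice 8 to 10 weeks old. The sources used here do not give the dose, duration or vehicle of PA, the oxygen tension, or the medium that the control and PA cultures were kept in. Effects of the base medium, such as its glucose or lactate, and of products of the ADSCs therefore cannot be told apart.

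Cells short of oxygen rely on the hypoxia-inducible factors, each a pair of an oxygen-labile alpha subunit (Hif1a or Epas1) and a stable partner, Arnt. In normal oxygen, prolyl hydroxylases (Egln1, Egln3) mark the alpha subunit for destruction through the von Hippel-Lindau protein. In low oxygen the factor binds a short DNA core next to its target genes, among them nearly all enzymes of glycolysis, the glucose and lactate carriers, and the kinases that keep pyruvate out of the mitochondria. The alpha subunits are controlled largely as proteins, so their mRNA is not a measure of their activity. Stellate cells that turn into myofibroblasts are known to increase glycolysis, which is why these genes are of interest in a study of stellate cells given a saturated fatty acid.

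Each condition was measured on 1 one-colour array, and no test between conditions was run. Levels are quantile-normalized log2 intensities, differences are in log2 units except where stated as folds, and a gene is called higher or lower when it differed by at least 1.5-fold. Intensities at the 75th percentile were 473 to 602, highest on the PA array, 67.5% to 70% of probes were well above background, and no spot was saturated. The arrays shared 1 slide. All 37 members were well above background on all 4 arrays. The only error that the files hold is that of replicate spots: the SD of a difference between 2 single spots was 0.06 to 0.067 at levels of 9 or more, 0.08 at levels of 7 to 9, 0.128 at 5 to 7 and 0.233 at 3 to 5. It leaves out the variation between cultures, so a difference beyond it is a difference between 2 RNA samples and not yet one between conditions. Of 12 stellate markers, 9 were well above background on all arrays, including Col1a1, Vim, Acta2 and Pdgfrb, and Lrat, Hand2 and Reln were not above background on any. The same held for Adgre1, Clec4f and Ptprc of the macrophage markers and Pecam1 and Cdh5 of the endothelial ones. Of 6 hepatocyte markers 5 were on the array. All of these were below that mark on every array except Apob, which was above background on 1 array. Above background on all 4 arrays were 3 of 6 macrophage markers (Cd68, Csf1r and Lyz2, at 3.19 to 7.88) and 3 of 5 endothelial markers (Kdr, Tek and Stab2, at 2.98 to 8.77). Of the adipocyte markers, Adipoq, Plin1 and Lep were not above background on any array, whereas Fabp4 was at 11.46 in control, 10.95 with PA, 12.07 with ADSC medium and 11.99 with both. Cidec, the remaining adipocyte marker, was dim, at 3.82, 4.57, 3.37 and 4.07. The summed intensity of the 5 adipocyte markers was 2831, 2008, 4302 and 4099 in the same order, nearly all of it Fabp4, and its part in the results below was not tested.

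As a group the members were highest when PA and ADSC medium were both given. Of the 37 genes, 26 had their highest level on the array of PA and ADSC medium (70.3%, against 23.8% of the 17355 genes well above background on all arrays), and 21 had their lowest in control (56.8%, against 16.0%). Against control, 30 of 37 were higher with both agents by any amount (46.5% of all genes compared), 12 were at least 1.5-fold higher (4.68% of all genes) and 0 were 1.5-fold lower (3.67%). The median difference of the members was 0.37, against -0.020 over all genes. The 12 genes cover most roles: the glucose carrier Slc2a1, the enzymes Pfkl, Aldoc and Tpi1, Ldha and the lactate carrier Slc16a3, the kinase Pdk1, the factor Hif1a, and the targets Adm, Bnip3, P4ha1 and Ankrd37. Ldha (0.60), Tpi1 (0.61), Hif1a (0.62), Adm (0.63) and Aldoc (0.64) stood only just past 1.5-fold. Of these, Ldha, Tpi1 and Aldoc fell short of it in some settings, with lowest values of 0.54, 0.52 and 0.48.

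**Figure D1:**
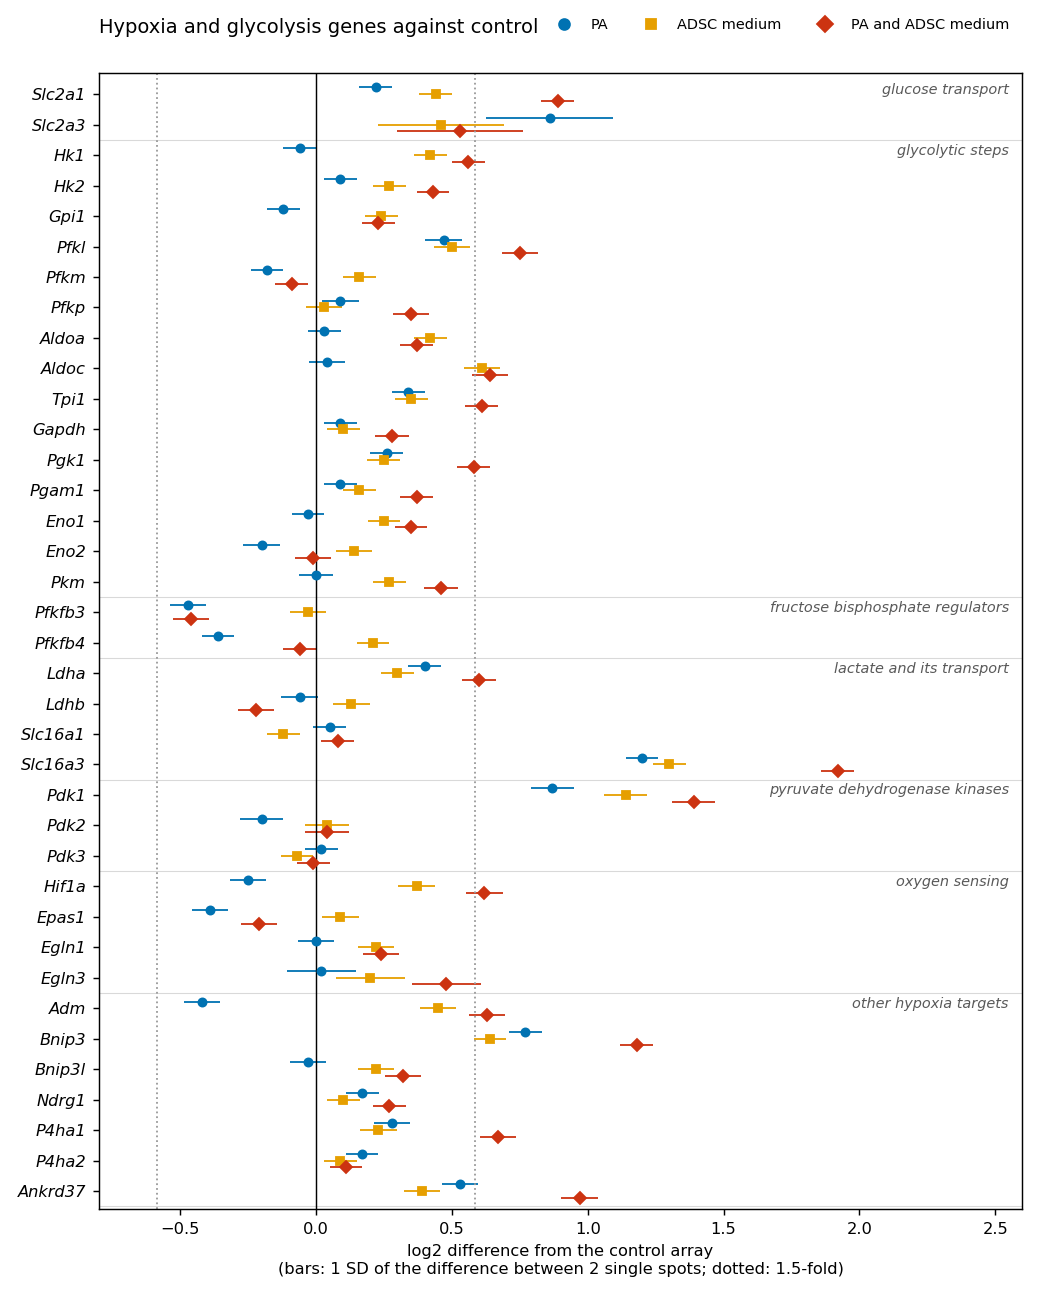
Log2 difference of each of the 37 members from the control array with PA (circles), ADSC medium (squares) and both (diamonds); bars are 1 SD of the difference between 2 single spots and dotted lines mark 1.5-fold, with 1 array per condition. The red diamonds lie to the right of 0 for 30 members and farthest for Slc16a3 at 1.92, while the PA circles are spread on both sides of 0.

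With ADSC medium alone nearly all members were above control, and with PA alone they lay on both sides of it. With ADSC medium, 34 of 37 members were higher than control by any amount (48.1% of all genes), 4 by at least 1.5-fold (2.31%) and 0 were 1.5-fold lower (1.29%), with a median of 0.238 against -0.006 over all genes. With PA, 22 were higher than control by any amount (48.5% of all genes), 4 by at least 1.5-fold (2.92%) and 0 were 1.5-fold lower (3.27%). The median with PA was 0.04, against -0.008 over all genes; under 75th percentile scaling both medians were lower, at -0.008 and -0.051, and the gap between them was 0.048 and 0.044 in these settings. Slc16a3, Pdk1 and Bnip3 were called in both of these comparisons, which share the control array. The fourth gene was Aldoc with ADSC medium and Slc2a3 with PA.

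The medium was also compared in the presence of PA, on the other pair of arrays. There 33 of 37 members were higher with the medium by any amount (46.4% of all genes), 6 by at least 1.5-fold (5.25%) and 0 were 1.5-fold lower (3.72%), with a median of 0.297 against -0.019. The 6 were Slc2a1, Hk1, Aldoc, Slc16a3, Hif1a and Adm. PA in the presence of the medium left 29 members higher by any amount (47.4% of all genes), 1 by at least 1.5-fold (3.54%) and 0 were 1.5-fold lower (3.14%), with a median of 0.172, or 0.098 under the 75th percentile scaling. The 1 gene was Slc16a3.

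Glucose enters through facilitative carriers, of which Slc2a1 (GLUT1) is the common one of cultured cells. Slc2a1, read at chromosome 4, 118809864 to 118809923 (mm9), was at 12.96 in control, 13.19 with PA, 13.41 with ADSC medium and 13.86 with both. The steps ran in 1 direction, and the highest array was 1.86-fold above control. The medium added 0.44 without PA and 0.67 with it, and PA added 0.22 without the medium and 0.45 with it, each at least 3 times the spot SD of 0.061. Slc2a3 (GLUT3), a high-affinity carrier, was dim, at 3.94, 4.81, 4.41 and 4.48 in the same order. It was highest with PA alone, but normexp background correction brought its difference from 0.86 to 0.22, and its other probes were not above background on any array.

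The hexokinases, which trap glucose in the cell, were higher with the medium and, by their brightest probes, differed little with PA. Hk1 was at 12.89 in control, 12.83 with PA, 13.32 with ADSC medium and 13.45 with both. The difference with the medium was 0.42 without PA and 0.62 with PA, whereas that with PA was -0.06 and 0.13. The mean over the detected probes of Hk1 gave 0.54 in place of 0.62, short of 1.5-fold. Its 4 other detected probes were lower with PA alone, at -0.28 to -0.12, and gave 0.12 to 0.30 with the medium alone. Hk2, the hexokinase most often linked to hypoxia, was at 10.81, 10.90, 11.08 and 11.24, lowest in control and highest with both, with medium differences of 0.27 and 0.34. Gpi1, which turns glucose-6-phosphate into fructose-6-phosphate, was at 15.73, 15.61, 15.97 and 15.96, with a medium difference of 0.24 and 0.35, while its PA difference was -0.12. With the mean of its probes, the second of them dim, the medium difference with PA was 0.17 and the PA difference 0.05.

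Phosphofructokinase commits glucose to glycolysis, and its 3 subunit genes had different orders over the arrays. Pfkl, the liver-type subunit, was at 10.27 in control, 10.74 with PA, 10.77 with ADSC medium and 11.02 with both, 1.68-fold from the lowest array to the highest. Pfkm, the muscle type, was at 11.14, 10.97, 11.30 and 11.06, lower with PA by 0.18 and 0.24 on the log2 scale, without and with the medium. Pfkp, the platelet type, was at 9.47, 9.56, 9.51 and 9.82, but its other 2 probes with signal gave -0.15 and -0.06 where the brightest gave 0.35. The liver-type subunit was thus the only phosphofructokinase gene past 1.5-fold with both agents, and the difference between subunits was not tested.

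Among the aldolases, Aldoa and Aldoc were higher with the medium whether or not PA was present. Aldoa was at 16.60 in control, 16.63 with PA, 17.02 with ADSC medium and 16.97 with both. Aldoc was at 8.87, 8.91, 9.48 and 9.51, so that both cultures with the medium stood about 1.5-fold above both without it, and the PA differences of 0.04 and 0.03 turned to -0.10 and -0.09 with the mean of its probes. The medium difference of Aldoc was 0.61 and 0.60 and fell just short of 1.5-fold with normexp and with the mean of its probes. The PA differences of Aldoa were 0.03 and -0.06, and both values changed sign under at least 1 alternative setting.

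In the steps from triose phosphate to pyruvate, a set of very bright genes stood highest with both agents. Tpi1, triose phosphate isomerase, was at 15.44, 15.78, 15.80 and 16.05 in control, PA, ADSC medium and both. Pgk1, the first ATP-forming enzyme of the pathway, was at 15.86, 16.12, 16.11 and 16.43. The differences with PA alone and the medium alone were 0.34 and 0.35 for Tpi1 and 0.26 and 0.25 for Pgk1, and both agents together gave 0.61 and 0.58. Under 75th percentile scaling PA alone gave less, 0.15 for Tpi1 and 0.08 for Pgk1, and the medium alone 0.39 and 0.31. A second, dimmer probe of Tpi1 showed no PA difference (-0.01), while both Pgk1 probes ran together. Pgam1, phosphoglycerate mutase, was at 16.07, 16.16, 16.23 and 16.44, and its PA difference of 0.09 turned to -0.13 in the setting farthest from it. Gapdh, which is often used as a reference gene, was at 16.49, 16.58, 16.59 and 16.77, so it was 0.28 higher with both agents than in control. Its PA difference was 0.18 in the presence of the medium and 0.09 in its absence, the latter being -0.12 under 75th percentile scaling.

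The last enzymes were higher with the medium in both comparisons. Eno1, the common enolase, was at 12.17 in control, 12.14 with PA, 12.41 with ADSC medium and 12.51 with both. Pkm, pyruvate kinase, was at 15.44, 15.44, 15.71 and 15.89. The medium difference was 0.25 and 0.38 for Eno1 and 0.27 and 0.46 for Pkm. Other Pkm probes read lower with PA alone, by as much as -0.47, so the PA value of 0.00 is a value of 1 probe. Eno2, the neuronal enolase and a usual hypoxia target, was at 9.82, 9.61, 9.95 and 9.81, lower with PA by 0.20 and 0.14 and higher with the medium by 0.14 and 0.20. All 15 genes of the glycolytic steps were higher with the medium by any amount in both comparisons, against 28.8% of all genes. Their medians were 0.251 and 0.315, though Pfkp turned to -0.09 without PA with the mean of its probes. Processed pseudogenes of several of these enzymes, Gapdh above all, can share probe sequence, and such transcripts cannot be told apart here.

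The regulators Pfkfb3 and Pfkfb4 make and degrade fructose-2,6-bisphosphate, the activator of phosphofructokinase, and both are classical hypoxia targets. They stood apart from the enzymes. Pfkfb3 was at 9.50 in control, 9.03 with PA, 9.47 with ADSC medium and 9.04 with both, so it was lower with PA by 0.47 and 0.43, while its medium differences were -0.03 and 0.01. Pfkfb4 was at 11.14, 10.78, 11.35 and 11.08, lower with PA by 0.36 and 0.27. Both dimmer Pfkfb3 probes were also lower with PA, at -0.34 and -0.51 without the medium and -0.82 and -0.09 with it. They disagreed on the medium without PA, at 0.39 and -0.61. By its brightest probe neither gene reached 1.5-fold, although each of these PA differences was over 4 times the spot SD. Pfkfb3 was the only member that was highest in control.

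At the end of the pathway, Ldha turns pyruvate into lactate and Slc16a3 (MCT4) carries lactate out of the cell. Slc16a3, read at chromosome 11, 120820023 to 120820082 (mm9), was at 10.34 in control, 11.55 with PA, 11.64 with ADSC medium and 12.26 with both. It was 2.30-fold above control with PA, 2.46-fold with the medium and 3.78-fold with both. It was the member with the largest difference from control in each of these comparisons, above 99.2%, 99.7% and 99.6% of all genes. Over the settings tried, its difference with both agents ran from 1.87 to 1.93. Ldha was at 16.46, 16.86, 16.76 and 17.06, and its second probe at 14.58, 15.07, 15.02 and 15.40, so both had the same order. With both agents Ldha was 1.51-fold higher, a difference of 0.60 that was 0.54 with the 75th percentile scaling.

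The counterparts of these genes did not share the pattern. Ldhb, the subunit that favours the return from lactate to pyruvate, was at 10.43, 10.37, 10.56 and 10.21 in control, PA, ADSC medium and both. It was the only member that was lowest with both agents. Slc16a1 (MCT1), the carrier that can also import lactate and is not a usual hypoxia target, was at 12.24, 12.29, 12.12 and 12.32, and all its differences lay between -0.12 and 0.20.

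The pyruvate dehydrogenase kinases switch off the enzyme that feeds pyruvate to the mitochondria. Pdk1, a member of the family under control of hypoxia-inducible factor, read at chromosome 2, 71741820 to 71741879 (mm9), was at 7.90 in control, 8.77 with PA, 9.04 with ADSC medium and 9.29 with both. A second probe gave 7.72, 8.61, 8.72 and 9.02. Both probes had the order control, PA, ADSC medium, both. The differences from control were 1.82-fold with PA, 2.21-fold with the medium and 2.61-fold with both. Pdk2 was at 7.33, 7.13, 7.38 and 7.38, and Pdk3 was at 11.06 in control and within 0.07 of it on the other arrays, so neither was called in any comparison.

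**Figure D2:**
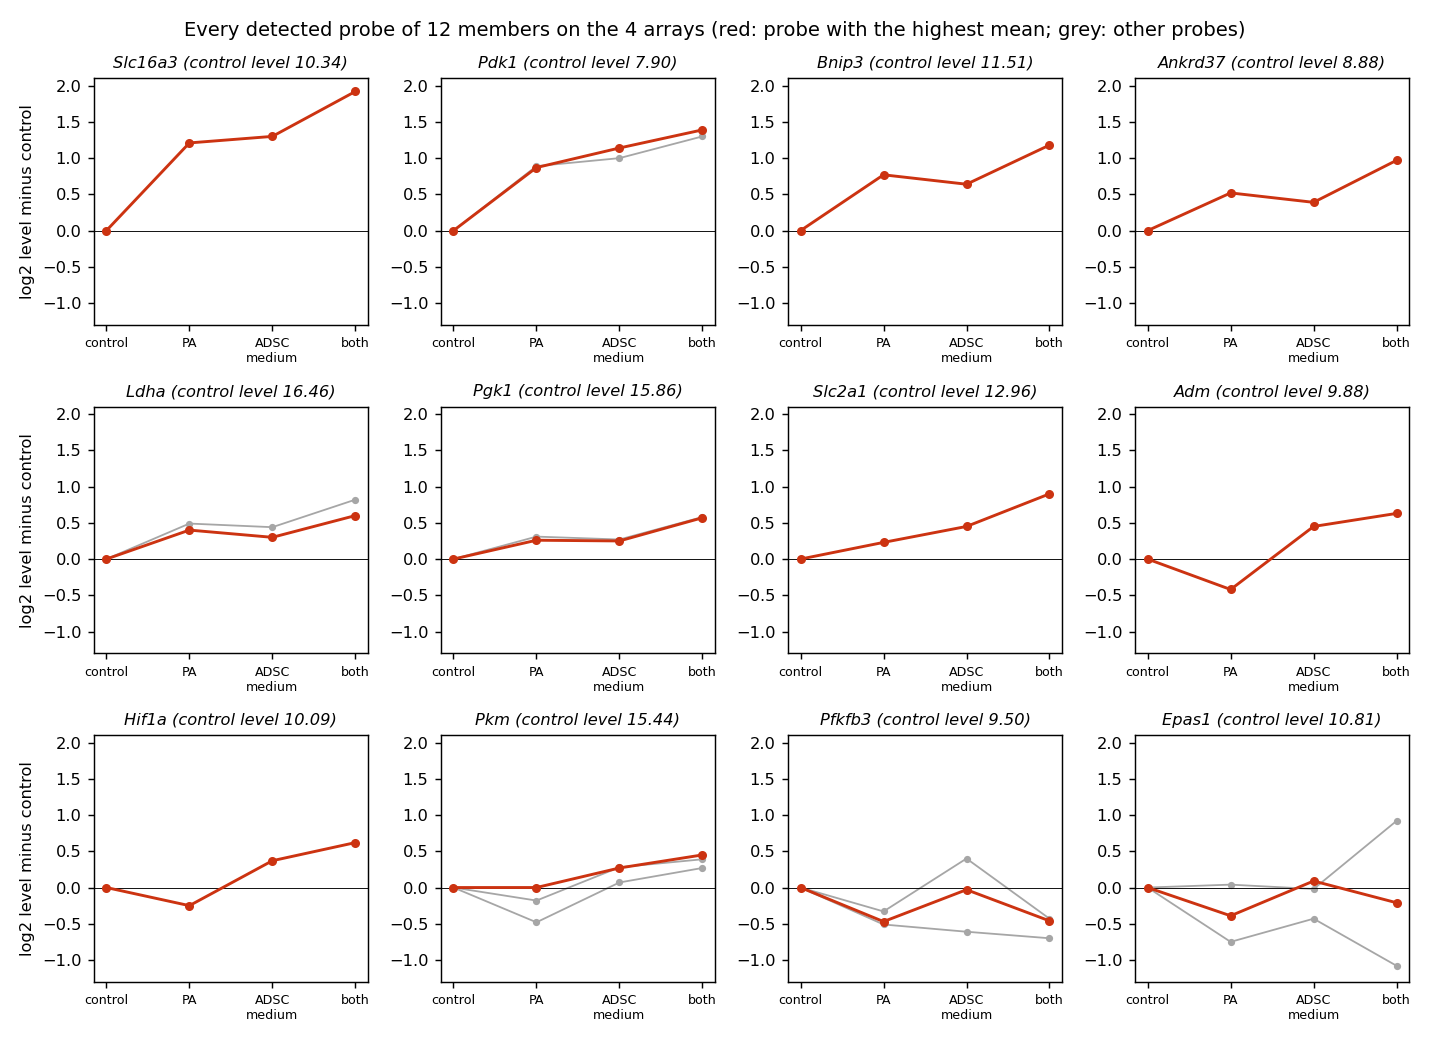
Level of every detected probe of 12 members on the 4 arrays, as log2 level minus the control array (y) by condition (x); red is the probe with the highest mean, grey are the other probes, and lines only join the values of 1 probe. Slc16a3, Pdk1, Bnip3, Ankrd37, Ldha, Pgk1 and Slc2a1 stand above control with each agent. Adm and Hif1a dip with PA alone, and Pfkfb3 is lowest on both PA arrays by its red line.

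Of the oxygen-sensing genes, Hif1a differed most with the medium, by their brightest probes, and Epas1 differed most with PA alone. Hif1a, read at chromosome 12, 75047269 to 75047329 (mm9), was at 10.09 in control, 9.84 with PA, 10.46 with ADSC medium and 10.71 with both. It was lowest with PA alone and highest with both, so the medium difference was 0.37 without PA and 0.87 with PA, a 1.83-fold higher level. Epas1, which encodes HIF-2 alpha, was at 10.81, 10.42, 10.90 and 10.60, lower with PA by 0.39 and 0.30 by its brightest probe. Its 2 dim probes, one of them not above background with both agents, disagreed with each other, at -0.75 and 0.04 for PA. Egln1, the main prolyl hydroxylase, was at 9.52, 9.52, 9.74 and 9.76, and Egln3, the isoform most induced by hypoxia, at 6.38, 6.39, 6.57 and 6.86. Both hydroxylase genes were higher with the medium, and with PA alone they were within 0.02 of control, a difference that changed sign between settings. The medium difference of Egln3 was 0.20 and 0.47, against a spot SD of 0.128.

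Of the 7 other hypoxia targets, Bnip3, Ankrd37 and P4ha1 were at least 1.5-fold higher with both agents and also higher with each alone. Ndrg1 and P4ha2, given below, were also above control on these arrays, but by less than 1.5-fold. Bnip3, which encodes a mitochondrial protein of mitophagy and cell death (chromosome 7, 146083077 to 146083136, mm9), was at 11.51 in control, 12.28 with PA, 12.15 with ADSC medium and 12.69 with both. It was 1.71-fold, 1.56-fold and 2.26-fold above control. Ankrd37, a small ankyrin-repeat gene known as a hypoxia target, was at 8.88, 9.40, 9.27 and 9.85, 1.96-fold higher with both. P4ha1, a collagen prolyl 4-hydroxylase subunit, was at 10.10, 10.38, 10.33 and 10.76, 1.59-fold higher with both and with the same order in its second probe. In these 3 genes the difference with PA alone was larger than with the medium alone, though by little. The same held for Ndrg1 (0.17 and 0.10) and for the brightest probe of P4ha2 (0.17 and 0.09).

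Adm, which encodes the vasodilator peptide adrenomedullin (chromosome 7, 117773088 to 117773147, mm9), had another order. It was at 9.88 in control, 9.46 with PA, 10.33 with ADSC medium and 10.51 with both. It was lower by 0.42 with PA alone, and 2.07-fold higher with PA and medium than with PA. Bnip3l, a relative of Bnip3, was at 10.72, 10.69, 10.94 and 11.04, also higher with the medium. Ndrg1, a stress-responsive gene, was at 13.42, 13.59, 13.52 and 13.69, and P4ha2 at 12.74, 12.91, 12.82 and 12.84. By these probes they differed from control by at most 0.27. A second P4ha2 probe, dim at 2.90 in control, gave 0.50 with ADSC medium.

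The core bound by hypoxia-inducible factor is ACGTG or GCGTG, and the letters before the transcription start of several members are shown because these genes stood highest with both agents. The sequences are the 250 bases before a start in RefSeq (GRCm38.p6), 5′ to 3′ on the gene's strand, and capitals mark every ACGTG or GCGTG on either strand (CACGT or CACGC when it lies on the other strand). Slc16a3 is at chr11:120948817-120949066 (plus strand), Pdk1 at chr2:71872974-71873223 (plus), Bnip3 at chr7:138909507-138909756 (minus), Ankrd37 at chr8:45999851-46000100 (minus), Ldha at chr7:46845554-46845803 (plus), Pgk1 at chrX:106186850-106187099 (plus) and Slc2a1 at chr4:119108495-119108744 (plus). Pfkfb3 at chr2:11502091-11502340 (minus) is shown as a member that was not higher, and Tpi1 at chr6:124814159-124814408 (minus) as a higher member without a match. Where RefSeq lists 2 starts (Pdk1, Ldha, Pfkfb3), the one with more matches is shown.
Slc16a3: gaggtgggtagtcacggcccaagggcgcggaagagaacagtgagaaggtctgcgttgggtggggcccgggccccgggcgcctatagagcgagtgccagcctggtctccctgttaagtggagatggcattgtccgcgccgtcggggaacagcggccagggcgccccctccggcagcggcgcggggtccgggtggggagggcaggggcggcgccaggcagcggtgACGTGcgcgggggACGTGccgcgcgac
Pdk1: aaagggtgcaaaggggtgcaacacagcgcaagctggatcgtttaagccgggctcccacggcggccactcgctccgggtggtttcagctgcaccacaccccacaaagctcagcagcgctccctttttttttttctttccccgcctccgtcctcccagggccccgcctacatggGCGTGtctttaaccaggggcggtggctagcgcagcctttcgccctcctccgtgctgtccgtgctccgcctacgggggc
Bnip3: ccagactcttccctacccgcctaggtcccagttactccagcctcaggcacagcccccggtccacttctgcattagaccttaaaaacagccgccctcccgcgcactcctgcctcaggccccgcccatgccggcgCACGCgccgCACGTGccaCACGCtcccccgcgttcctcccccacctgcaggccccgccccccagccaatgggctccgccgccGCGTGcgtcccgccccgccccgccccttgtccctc
Ankrd37: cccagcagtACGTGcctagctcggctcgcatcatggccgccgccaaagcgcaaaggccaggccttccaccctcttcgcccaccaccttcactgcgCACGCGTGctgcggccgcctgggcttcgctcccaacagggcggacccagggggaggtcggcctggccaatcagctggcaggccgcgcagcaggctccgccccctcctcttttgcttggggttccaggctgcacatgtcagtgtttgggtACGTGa
Ldha: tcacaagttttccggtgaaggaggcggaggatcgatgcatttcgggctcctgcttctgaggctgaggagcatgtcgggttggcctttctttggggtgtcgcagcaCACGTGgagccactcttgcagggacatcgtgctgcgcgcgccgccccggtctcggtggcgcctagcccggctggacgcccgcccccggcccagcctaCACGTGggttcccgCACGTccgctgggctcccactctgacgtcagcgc
Pgk1: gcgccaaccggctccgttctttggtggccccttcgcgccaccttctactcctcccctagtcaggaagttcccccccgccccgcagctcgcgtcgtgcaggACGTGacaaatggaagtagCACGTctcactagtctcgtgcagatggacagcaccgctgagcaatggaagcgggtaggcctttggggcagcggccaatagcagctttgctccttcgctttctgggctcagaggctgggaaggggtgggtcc
Slc2a1: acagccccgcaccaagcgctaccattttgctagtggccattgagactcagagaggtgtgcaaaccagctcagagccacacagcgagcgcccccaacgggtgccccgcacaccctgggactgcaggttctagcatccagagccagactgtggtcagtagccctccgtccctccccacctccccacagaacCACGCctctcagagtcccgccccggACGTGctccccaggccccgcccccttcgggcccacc
Pfkfb3: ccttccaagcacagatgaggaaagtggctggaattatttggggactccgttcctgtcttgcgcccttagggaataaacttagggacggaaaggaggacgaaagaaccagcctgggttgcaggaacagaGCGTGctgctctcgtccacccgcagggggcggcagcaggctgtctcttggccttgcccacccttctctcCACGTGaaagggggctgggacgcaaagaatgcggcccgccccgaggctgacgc
Tpi1: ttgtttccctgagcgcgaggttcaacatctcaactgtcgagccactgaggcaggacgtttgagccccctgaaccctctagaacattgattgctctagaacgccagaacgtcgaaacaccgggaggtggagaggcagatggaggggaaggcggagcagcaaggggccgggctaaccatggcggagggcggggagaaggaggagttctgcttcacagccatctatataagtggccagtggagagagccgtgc
Of the 37 members, 33 had a start in the table, with 47 starts in all (Bnip3l, Epas1, Ndrg1 and Slc2a3 had none). ACGTG stood in 23 of the 47 windows (48.9%), against 16.6% of all 32851 starts and 17.8% of the 21263 starts of protein-coding genes. ACGTG or GCGTG stood in 38 of 47 (80.9%), against 38.6% and 44.0%. The list holds known targets of the factor, so the choice of members itself bears on these shares. Windows of the same gene can overlap, as for Aldoa and Eno1, so a match can be counted more than once. Member windows were also richer in CG, with a median of 14 CG dinucleotides against 10 in protein-coding genes, and both cores contain CG; the part of this in the shares was not tested. Of the windows shown, that of Pfkfb3, which was lower with PA, holds ACGTG. That of Tpi1, which was 1.52-fold higher with both agents (0.61, and 0.52 at the lowest over the settings), holds neither core. Matches were not set against levels over all members. A match is a run of letters and says nothing of binding in these cells.

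The 2 pairs of arrays that differ by the medium share no array, and neither do the 2 pairs that differ by PA, so each effect can be set beside itself. Higher with the medium both without and with PA were 31 of 37 members, against 28.8% of all genes. At least 1.5-fold higher in both were Aldoc and Slc16a3, 2 of 37, against 1.34% of all genes. Higher with PA both without and with the medium were 21 of 37, against 29.7% of all genes, and lower in both were 7, against 33.9%: Gpi1, Pfkm, Eno2, Pfkfb3, Pfkfb4, Ldhb and Epas1. The count of 31 was 29 with the mean of detected probes. The PA counts of 21 and 7 were not repeated under the other settings, and some of their differences changed sign there. Without the medium, Gapdh (0.09), Pgam1 (0.09), Pfkp (0.09) and Aldoc (0.04) reached -0.12, -0.13, -0.08 and -0.10 at the lowest. Gpi1, counted as lower at -0.12, reached 0.05 at the highest. All 11 hypoxia genes were higher with the medium without PA (48.1% of all genes), though Epas1, at 0.09, turned to -0.12 in another setting. With PA 10 were higher (46.4% of all genes), P4ha2 being the exception at -0.07.

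**Figure D3:**
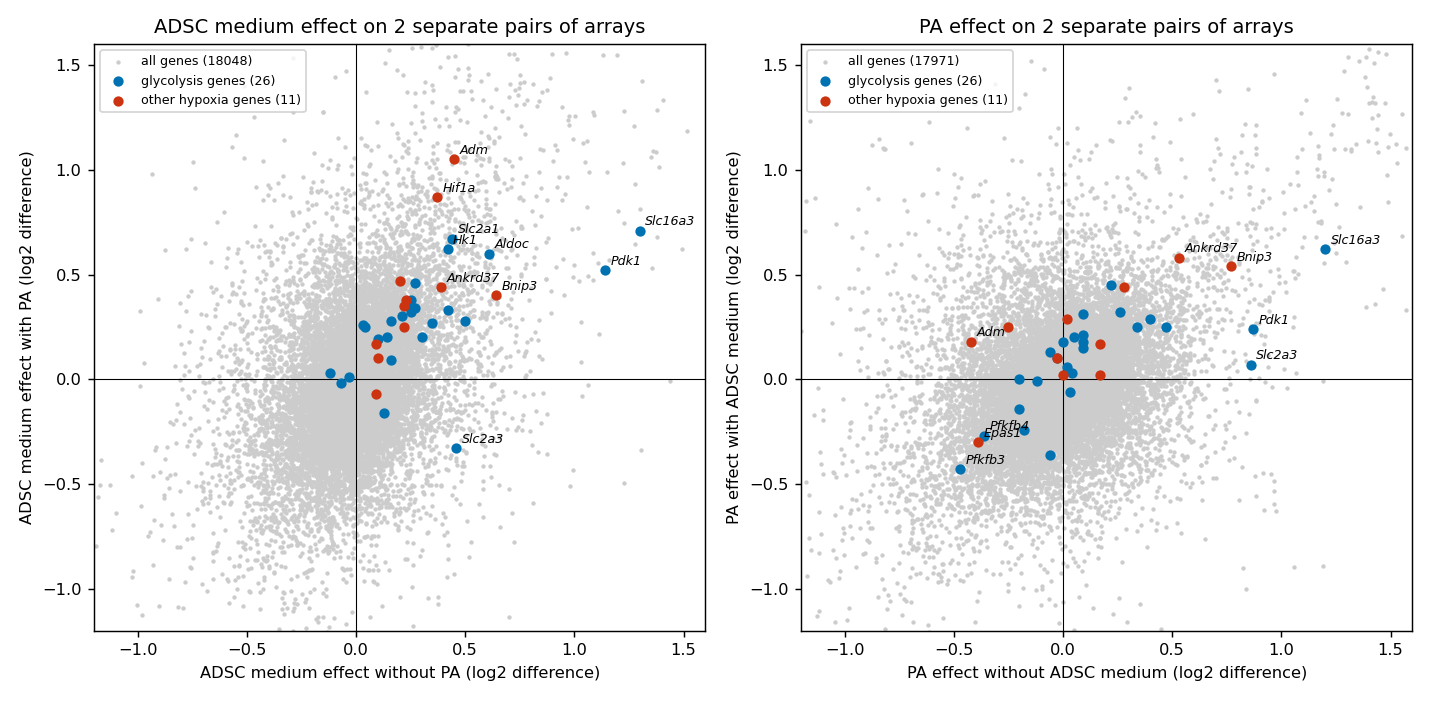
Effect of ADSC medium without PA (x) and with PA (y) on the left, and of PA without (x) and with (y) the medium on the right, as log2 differences; each axis uses its own pair of arrays, grey points are all genes, and genes beyond the axes are not shown. On the left 31 of 37 members lie where both differences are above 0, with Slc16a3 and Pdk1 farthest to the right and Adm highest; on the right the members lie on both sides of 0, with Pfkfb3, Pfkfb4 and Epas1 at the lower left.

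The medium difference was set against itself without and with PA. The medium effect with PA minus that without PA had a median of 0.064 over the members and -0.011 over all genes. Adm alone was past 1.5-fold larger with PA present (0.60; 3.92% of all genes), and Hif1a came next at 0.50. Past 1.5-fold smaller were Slc2a3 (-0.80) and Pdk1 (-0.62; 2.78% of all genes), and Slc16a3 was close at -0.58. With normexp Adm was at 0.52, Slc2a3 at -0.24 and Pdk1 at -0.57, all short of 1.5-fold, and Slc16a3 at -0.61, past it. Slc16a3 and Pdk1 are the members with the largest differences from control for the medium alone. With both agents Slc16a3 differed from control by 1.92, where PA alone gave 1.20 and the medium alone 1.30. With 1 array per group no error can be given for these values.

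The members were brighter than most genes, so they were also set against genes of like level. Of the 744 genes at a level of 14 or more, 41.5% were higher with the medium than in control and 41.1% with PA and medium than with PA, with medians of -0.011 and -0.014. The 8 members at that level (Gpi1, Aldoa, Tpi1, Gapdh, Pgk1, Pgam1, Pkm and Ldha) were higher in both, with medians of 0.263 and 0.296. At levels of 9 to 12, 16 of 18 members were higher in each of these comparisons, against 48.0% and 44.3% of all genes of that level.

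Genes that border on these pathways were read from further lists, also chosen with earlier results of these data known. Of 38 other hypoxia-inducible genes, 5 were at least 1.5-fold higher with the medium alone (2.31% of all genes; 3 with normexp) and 0 were 1.5-fold lower. They were Stc1, Stc2, Fam162a, Ak4 and Tmem45a, of which Stc1 was above background on 1 array and is a bound. With both agents 11 of 37 with a value were 1.5-fold higher than control (4.68% of all genes; 9 with normexp), and their medians of 0.137 and 0.309 lay between those of the members and of all genes. Tmem45a, a membrane protein gene, was at 9.16 in control, 8.73 with PA, 10.55 with ADSC medium and 10.69 with both, and Stc2, which encodes the secreted protein stanniocalcin-2, at 9.22, 9.0, 10.06 and 9.99; these 2 were past 1.5-fold with the medium both without and with PA. Angptl4, an inhibitor of lipoprotein lipase that both hypoxia and fatty acids induce, was at 12.01, 13.35, 12.37 and 13.50, so it was high on both arrays with PA. Ak4, a mitochondrial adenylate kinase, was at 4.98, 5.83, 5.93 and 6.41, in the order of Pdk1, though its difference of 1.43 with both agents was 0.66 with normexp. Rsbn1 was at 9.09, 9.32, 9.47 and 10.20, and Rbpj, the DNA-binding factor of Notch signalling, at 10.63, 10.62, 11.11 and 11.66, both highest with both agents, and the second Rsbn1 probe gave 1.25 where the first gave 1.11 against control.

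The other lists held few genes past 1.5-fold. Of 12 further oxygen-sensing regulators, including Vhl, Hif1an, Egln2 and Arnt, 0 were past 1.5-fold with PA alone or the medium alone. Without PA, 10 were lower by any amount with the medium, as were 9391 of 18198 genes in all. With PA, 10 were lower with the medium, as were 10024 of 18751 genes. The medians of the regulators were -0.059 and -0.144. Arnt2, a relative of Arnt, was at 5.31 in control, 5.58 with PA, 4.77 with ADSC medium and 4.69 with both, and its difference of -0.89 between both agents and PA was -0.36 with normexp. The 12 genes of pyruvate entry to the mitochondria with a value had medians of -0.011 and -0.156 with the medium, the 9 of the pentose phosphate branch 0.131 and 0.001, and the 11 housekeeping genes -0.018 and 0.040. In none of the 5 comparisons did these 3 lists hold a gene past 1.5-fold. The 12 genes of gluconeogenesis and glycogen with a value had medians of 0.051 and 0.073 with the medium. Of these, 2 were at least 1.5-fold higher with both agents than in control (4.68% of all genes). Likewise 2 were higher than with PA (5.25% of all genes), with Ppp1r3c among them each time. With normexp the counts were 1 and 0.

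**Figure D4:**
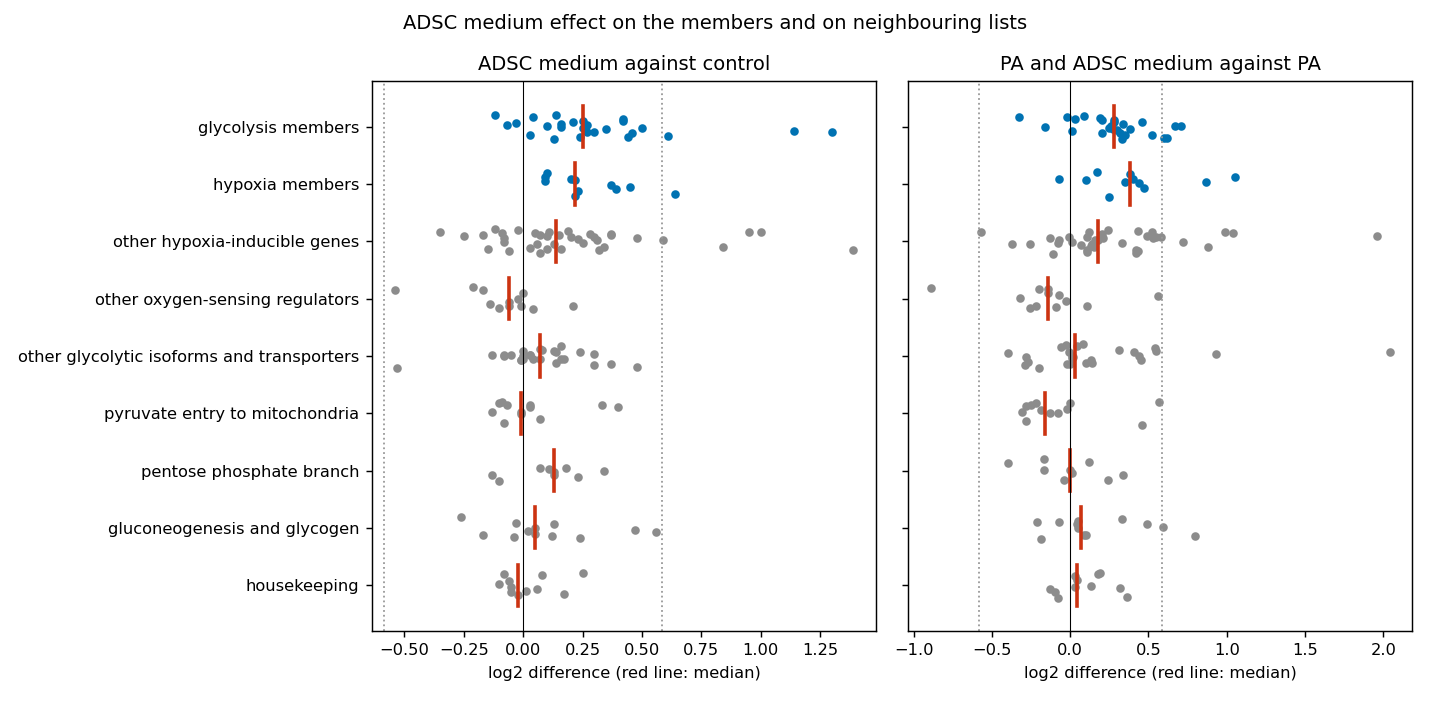
Log2 differences with ADSC medium, without PA on the left and with PA on the right, for the members (blue) and for 7 neighbouring lists (grey), each point a gene, with the median in red and dotted lines at 1.5-fold. The member medians of 0.249 and 0.225 on the left and 0.280 and 0.384 on the right lie to the right of every neighbouring list's median.

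The submitters also deposited 2 lists of probe names without values, described as genes up with PA against control and as genes up with PA that the medium lowers. The authors' deposited table for PA over control named 5 of the 68 member probes (7.35%, against 3.84% of all probes on the array), and these belong to Slc16a3, Pdk1, Bnip3, Ankrd37 and Slc2a3. The authors' deposited table for PA over PA and ADSC medium named none of the 68, against 2.24% of all probes. In the values here none of the 5 genes but Slc2a3 was lower with PA and ADSC medium than with PA alone.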

How the data were processed

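RNA of 4 IMS/N cultures was measured on 1 Agilent one-colour array each (mm9 design). Per the file headers, the scanner software was Agilent Feature Extraction 12.1.1.1, and its deposited processed signal is a background-subtracted, detrended intensity not scaled to other arrays. The series' design text names quantile normalization as the authors' method, and the submitters' processing notes list R 3.5.1. The deposited probe lists hold names only.

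Control spots and outlier spots (82 to 104 per array) were dropped, log2 values of a probe's spots averaged, and 41146 probes quantile-normalized with limma 3.58.1 in R 4.3.3; 28 probes lacked a value. Names came from RefSeq accessions for 28680 probes (GRCm38.p6 table), otherwise from the array. A gene is its probe with the highest mean; 20 members had several detected probes. A gene entered a comparison when well above background on 1 of its arrays, the dimmer side then set to at least the lowest level well above background. Differences were checked on simulated data with known changes past 1.5-fold and noise of the order of replicate spots. The simulation held no variation between cultures, so it says nothing of that variation. The named genes were all members, and, in the other lists, up to 5 of the largest calls per comparison, up to 8 called with the medium without and with PA, and the markers. Members and lists were chosen with earlier results of these data known. Alternatives were 75th percentile scaling, normexp (offset 50) on spot and background intensities, no filter on dim probes, and the mean of detected probes. Lists were counted in Python 3.11.15.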

Additional observations from a re-analysis of the deposited data

How the results depend on the processing

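Counts of members at least 1.5-fold higher or lower stayed within 1.5 times of their main value under all 4 alternatives in all 5 comparisons. The median of the members with PA against control changed from 0.04 to -0.008 under 75th percentile scaling, and that of all genes from -0.008 to -0.051. That scaling also gave 0.367 for both agents against PA and 0.098 for both agents against the medium alone, where the members' median minus that of all genes was 0.34 (0.316 in the main setting) and 0.116 (0.188). The cause of the rest was not tested. Of 27 called member differences, 20 were called in all settings, and none changed sign. Of all 185 member differences 22 changed sign in some setting, none of them larger than 0.12. Over all genes, the counts at 1.5-fold for PA and ADSC medium against PA were 985 higher and 698 lower, and 1290 and 462 with the 75th percentile scaling. With normexp they were 221 and 164 for PA, 106 and 21 for ADSC medium, 381 and 143 for both, each against control, 344 and 101 for both against PA, and 248 and 143 for both against ADSC medium. Without the filter they were, in that order, 1585 and 1510, 1557 and 1210, 1971 and 1672, 1877 and 1631, and 1629 and 1586. The main counts, in that order, were 532 and 596, 420 and 234, 855 and 670, 985 and 698, and 653 and 579. No replicate could be left out and no paired analysis was possible because each group has 1 array. Dim genes such as Slc2a3 are limited by their signal over background.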

Other observations

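Outside the member list, 3 isoforms or relatives of glycolytic enzymes were lower with PA alone. Hkdc1, a hexokinase-related gene, was at 7.72 in control, 6.60 with PA, 8.20 with ADSC medium and 8.63 with both, a difference of -1.12 with PA against control and of 2.04 between both agents and PA (1.62 with normexp). Bpgm, which makes the side product bisphosphoglycerate, was at 10.61, 9.96, 10.75 and 10.90, and its second probe gave -0.65 and 0.82 for the same differences. Eno3, the muscle enolase, was at 11.94, 11.33, 12.18 and 11.88. These 3 were the only genes of the 25 further glycolytic isoforms and transporters with a value that were at least 1.5-fold lower with PA than control (3.27% of all genes), and 0 were 1.5-fold higher. Ppp1r3c, a glycogen-targeting subunit, was at 4.31, 4.26, 4.27 and 5.06, higher only with both agents, but its difference of 0.76 from control was 0.23 with normexp.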
